A study of Mus musculus with 6 samples.

Results

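Hub elements were regulatory elements that the activity-by-contact (ABC) model paired with at least 8 distinct target genes in cultured mouse oligodendrocyte precursor cells (OPCs). Every listed element-gene pair was counted. Under this rule 909 of 33083 elements (2.75%) were hubs in control cells (Ctr-OPCs) and 949 of 35906 (2.64%) in interferon-gamma-treated cells (IFN-γ-OPCs), 1858 of 68989 elements in all. Joining hubs that overlapped by at least 1 bp gave 1322 distinct loci, of which 526 held a hub in both conditions, 377 in Ctr-OPCs alone and 419 in IFN-γ-OPCs alone. The members were chosen by their number of targets. Activity and contact enter the score of each pair, so differences between hubs and other elements in these measures are descriptions and carry no test.

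The cells were primary OPCs from brains of Sox10-Cre/RCE mouse pups (postnatal days 4 to 6) of the labelled strain C57BL/6j, in which Cre under the Sox10 promoter switches on a green reporter in the oligodendrocyte lineage. Per the study's methods, several brains were pooled for each experiment, and the cells were enriched by sorting for the reporter or with CD140a beads. Both groups grew in OPC proliferation medium with bFGF and PDGF-AA, and from 24 h after passaging IFN-γ-OPCs received the same medium with 100 ng/mL IFN-γ, an inflammatory cytokine, while Ctr-OPCs did not. H3K27ac HiChIP, which captures contacts between DNA fragments that carry this histone mark, was done on 3 libraries per condition and 6 in all. The predictions of each condition were made from its pooled libraries, so no value below has a replicate error, no difference between the conditions could be tested, and a change in the share of cells with an active element and a change in signal per cell cannot be told apart.

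Enhancers are stretches of DNA outside the gene start that bind transcription factors and raise transcription, often of genes at a distance. Active enhancers and promoters are open to transposase (ATAC-seq) and carry acetylated lysine on histone H3 (H3K27ac). The ABC model multiplies such an activity by the contact frequency of an element and a gene start, and divides by the sum of these products over all elements around that gene, so that a very active element takes a share of many genes. In OPCs, the dividing and migrating progenitors of myelin-forming oligodendrocytes, IFN-γ acts through its receptor and switches on genes of antigen presentation and chemokines.

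Where values stand in pairs, Ctr-OPCs come first unless stated otherwise. Pairs were listed from an ABC score of 0.02, and the study's own cutoff for a prediction was 0.05. Promoter-class elements and genes with a promoter activity quantile under 0.4 are not in the tables. All 6 OPC markers were listed as targets, with promoter activity quantiles (0 lowest, 1 highest among genes) of 0.851 to 0.982 in Ctr-OPCs and 0.815 to 0.994 with IFN-γ. Of 5 mature oligodendrocyte markers 4 and 5 were listed, at 0.636 to 0.739 and 0.633 to 0.710. Of 6 microglial markers 3 were listed in Ctr-OPCs, at 0.473 to 0.782, and 5 in IFN-γ-OPCs, at 0.471 to 0.825, while C1qa, a defining microglial gene, was listed in neither. Of 5 astrocyte markers 4 were listed in each table, without Aqp4, at 0.590 to 0.817 and 0.451 to 0.856, and all 5 neuronal markers, at 0.627 to 0.870 and 0.506 to 0.868. The part of other cell types in the results was not tested.

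Sequences of hubs follow, read from the + strand of mm10 (GRCm38), and after them mature miRNAs of hub target genes, each as its own RNA. The first set holds hubs of IFN-γ response genes that had at least 2-fold higher activity in IFN-γ-OPCs or no overlapping Ctr-OPC element, and that hold letters of the interferon-stimulated response element (ISRE). Capitals mark GAAANNGAA or its reverse complement and, in the Cxcl10 hub, also TTCNNNGAA, the letters of the gamma-activated site. Both motifs were searched on both strands, and their matches can overlap. In the central 500 bp, ISRE letters stood in 13.7% of all Ctr-OPC elements and 17.0% of all IFN-γ-OPC elements, and gamma-activated site letters in 13.9% and 15.2%, so a match is common and describes the sequence, not a bound site. The match shown for the Parp14 hub lies outside the central 500 bp, to which these shares do not apply.
Cxcl10 hub, Art3 intron, chr5:92353516-92353728: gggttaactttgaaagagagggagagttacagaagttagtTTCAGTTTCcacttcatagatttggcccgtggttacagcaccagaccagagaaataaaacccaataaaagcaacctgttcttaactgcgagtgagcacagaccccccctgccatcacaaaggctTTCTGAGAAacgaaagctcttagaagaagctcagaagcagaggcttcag
Cxcl9 hub, Art3, chr5:92332467-92332555: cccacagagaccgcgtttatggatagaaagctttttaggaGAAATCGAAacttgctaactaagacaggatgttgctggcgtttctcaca
Parp14 hub, Parp14 intron, chr16:35869270-35869364: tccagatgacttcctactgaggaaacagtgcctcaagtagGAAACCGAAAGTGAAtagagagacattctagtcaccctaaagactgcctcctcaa
Socs1 hub, chr16:10787236-10787343: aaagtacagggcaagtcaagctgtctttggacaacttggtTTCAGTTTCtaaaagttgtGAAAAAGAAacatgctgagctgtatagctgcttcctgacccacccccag
Dtx3l and Parp9 hub, chr16:35918862-35918950: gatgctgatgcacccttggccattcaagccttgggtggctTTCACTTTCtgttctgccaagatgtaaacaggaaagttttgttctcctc

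The second set comes from CpG-island-like hubs at a gene start that were hubs in both conditions, the 3 with the most targets among those holding CCGGAAG, the core letters of ETS factors, in capitals here and searched on both strands. CCGGAAG stood in 3.83% of all Ctr-OPC and 3.67% of all IFN-γ-OPC elements.
Pnrc1 start hub, chr4:33248247-33248397: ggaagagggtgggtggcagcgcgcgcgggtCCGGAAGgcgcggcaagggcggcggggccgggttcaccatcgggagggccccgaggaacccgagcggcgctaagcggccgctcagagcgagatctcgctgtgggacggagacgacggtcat
Wdr37 start hub, chr13:8871062-8871221: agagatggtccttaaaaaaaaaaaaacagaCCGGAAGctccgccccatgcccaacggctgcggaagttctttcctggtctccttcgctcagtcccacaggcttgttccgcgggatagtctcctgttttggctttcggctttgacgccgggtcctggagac
Cd47 start hub, chr16:49855421-49855580: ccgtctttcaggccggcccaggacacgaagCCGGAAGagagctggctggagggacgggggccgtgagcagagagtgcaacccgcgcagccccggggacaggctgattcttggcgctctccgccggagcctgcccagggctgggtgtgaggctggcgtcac
The third is the start of the hub with the most targets of all, in an intron of Gm33838, a non-coding gene. Capitals mark the 164 of 200 bases that the genome's repeat masking covers.
Hub with 110 targets, chr9:35305203-35305402: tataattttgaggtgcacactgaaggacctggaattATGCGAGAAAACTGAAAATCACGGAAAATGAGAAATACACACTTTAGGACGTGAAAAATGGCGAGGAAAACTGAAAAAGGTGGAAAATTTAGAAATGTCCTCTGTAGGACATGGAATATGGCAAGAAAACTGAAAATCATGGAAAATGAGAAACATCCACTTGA

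The last set gives mature miRNAs, from RefSeq on GRCm38.p6, whose genes were targets of several hubs described further on. Capitals mark the seed, bases 2 to 8, which pairs with target mRNAs. miR-17-5p and miR-20a-5p share a seed, miR-19a-3p and miR-19b-3p share another, and miR-18a-5p, miR-92a-3p, miR-9-5p and miR-219a-5p each have their own.
miR-17-5p: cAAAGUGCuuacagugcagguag
miR-20a-5p: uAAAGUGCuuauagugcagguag
miR-18a-5p: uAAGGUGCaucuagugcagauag
miR-19a-3p: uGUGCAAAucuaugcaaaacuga
miR-19b-3p: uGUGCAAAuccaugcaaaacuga
miR-92a-3p: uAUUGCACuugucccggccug
miR-9-5p: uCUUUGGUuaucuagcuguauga
miR-219a-5p: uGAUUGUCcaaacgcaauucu

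Most hubs lay close to the threshold. The median hub had 10 targets in both conditions (quartiles 9 to 13 in Ctr-OPCs and 9 to 12 with IFN-γ), and 492 of the Ctr-OPC hubs (54.1%) and 549 of the IFN-γ-OPC hubs (57.9%) had 8 to 10. At the threshold itself, 216 and 234 hubs had exactly 8 targets, against 334 and 381 elements with 7 just outside it. The tail was long and thin, with 121 and 106 hubs of at least 16 targets, 28 and 18 of at least 25, and a maximum of 110 and 102. By contrast 19829 and 21657 elements had 1 target.

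**Figure D1:**
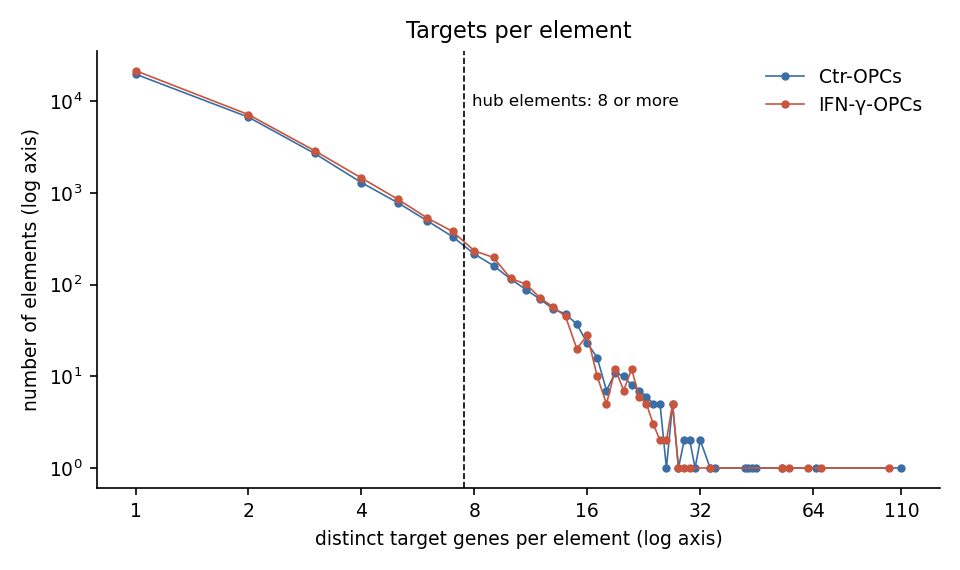
Number of elements (y axis, log scale) by number of distinct target genes (x axis, log scale) in Ctr-OPCs and IFN-γ-OPCs, with a line at the hub threshold of 8 targets. The number of elements declines without a break across the threshold, from 334 and 381 with 7 targets to 216 and 234 with 8, and reaches single elements with 110 and 102 targets.

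Hubs carried 16.2% of all pairs in Ctr-OPCs (10805 of 66637) and 15.1% with IFN-γ (10802 of 71478). Most of these pairs had low scores. The median score was 0.0319 and 0.0322 over hub pairs, against 0.0291 and 0.0290 over the pairs of other elements, and 24.4% of hub pairs in each table lay above the study's cutoff of 0.05, against 16.1% of other pairs. A hub had a median of 2 targets above that cutoff, 92 and 110 hubs had none, and 34 and 29 had at least 8. The best-scoring target of a hub had a median score of 0.0994 in Ctr-OPCs and 0.0985 with IFN-γ.

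Hubs were among the most active elements. Activity is the strength of the ATAC-seq and H3K27ac signal over the element, in the authors' units. Median activity was 3.40 over Ctr-OPC hubs (quartiles 2.48 to 4.5) and 3.29 over IFN-γ-OPC hubs (2.44 to 4.16), against 0.847 and 0.785 over the other elements. It was higher with each step in the number of targets. Elements with 1 target had a median of 0.707 and 0.651, those with 4 to 7 targets 1.94 and 1.91, those with 7 targets 2.49 and 2.44, hubs with 8 targets 2.98 and 2.77, and hubs with at least 16 targets 4.33 and 4.56. Since the score is proportional to activity, this order is part of how the targets were assigned. Activity alone did not set the class, because hubs ranged down to 0.402 and 0.408 while other elements reached 9.17 and 8.95.

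Most hubs were narrow elements. The narrowest elements, of 500 bp, made up 652 of the Ctr-OPC hubs (71.7%) and 719 of the IFN-γ-OPC hubs (75.8%), against 51.7% and 61.4% of all elements. Of the 500-bp elements 3.81% and 3.26% were hubs, and of those over 1000 bp 1.42% and 1.41%. Among 500-bp elements median activity was 3.42 and 3.25 for hubs and 0.906 and 0.792 for the rest.

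The tables class each listed element as genic or intergenic, and no pair of the model's promoter class was listed. Genic elements made up 677 Ctr-OPC hubs (74.5%) and 686 IFN-γ-OPC hubs (72.3%), against 67.9% and 66.7% of other elements. Although no element carries the promoter class, 245 Ctr-OPC hubs (27%) and 243 IFN-γ-OPC hubs (25.6%) lay within 250 bp of an annotated gene start (GENCODE M21), against 9.83% and 8.68% of other elements. CpG-island-like sequence (at least 50% GC and an observed-to-expected CpG ratio of at least 0.6) was found in 273 (30.03%) and 252 hubs (26.6%), against 6.61% and 6.06% of other elements. CpG islands are the usual sequence of housekeeping gene starts. There was no step at the threshold, since of elements with 7 targets 20.7% in each table lay at a start and 24% and 23.9% were CpG-island-like. Median GC content was 53.3% and 52.8% in hubs and 50.4% and 49.6% elsewhere.

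Letters of promoter-bound factors went the same way. CCGGAAG, printed above for the Pnrc1, Wdr37 and Cd47 start hubs, stood in the central 500 bp of 71 Ctr-OPC hubs (7.81%) and 67 IFN-γ-OPC hubs (7.06%), against 3.72% and 3.57% of other elements. GCGCANGCG, the letters of NRF1, stood in 5.72% and 5.58% of hubs against 1.53% and 1.40% of all elements. AAGATGGCG, those of YY1, stood in 2.20% and 1.90% against 0.432% and 0.454%. Elements with 7 targets lay between, with CCGGAAG in 6.59% and 5.77% and the NRF1 letters in 5.09% and 3.15%, except for YY1, whose letters stood in 0.599% and 2.10% of them, in IFN-γ-OPCs a larger share than in hubs. Letters of factors bound at distal enhancers were not more frequent. CATATG, an E-box form, stood in 40 hubs (4.40%) and 54 (5.69%), against 7.79% and 8.04% of all elements, and TGANTCA, the letters of AP-1, in 11.8% and 14.0% against 14.5% and 16.2%. CCACNAGGG, part of the motif of the insulator protein CTCF, stood in 3.19% and 2.95% against 3.86% and 3.63%. ACAAAG, the letters of SOX factors such as the lineage factor Sox10, stood in 38.8% and 40.8% of hubs and 38.9% and 41.0% of all elements. Gamma-activated site letters stood in 13.6% and 14.4% of hubs, and ISRE letters in 13.2% and 16.2%, close to the shares of all elements given with the sequences. Each motif was searched on both strands, and a missing match says only that these letters are not in the window.

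**Figure D2:**
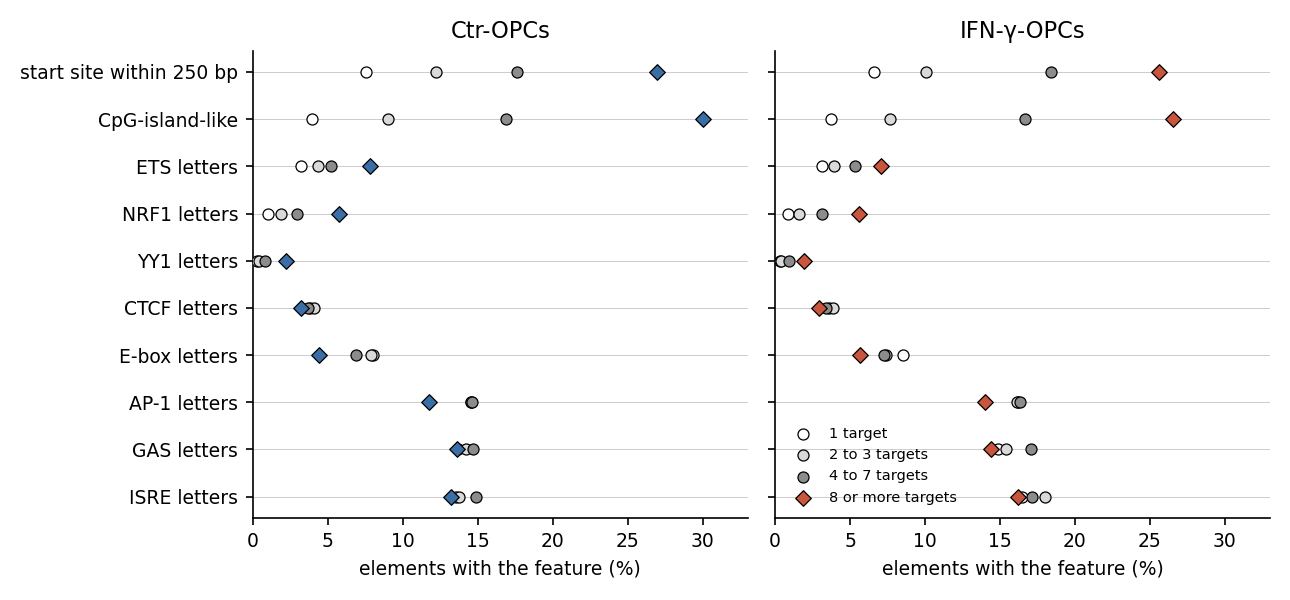
Share of elements (%) with each feature, by number of targets (1, 2 to 3, 4 to 7, at least 8), in Ctr-OPCs and IFN-γ-OPCs. The features are a gene start within 250 bp, CpG-island-like sequence, and the letters of ETS, NRF1, YY1, CTCF, an E-box, AP-1, the gamma-activated site and the ISRE in the central 500 bp. The share with a start or a CpG island is highest for hubs (27% and 30.03% in Ctr-OPCs, 25.6% and 26.6% with IFN-γ), while the share with E-box letters is lower in hubs than in all elements.

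The surroundings of hubs held slightly more genes. The median number of annotated gene starts within 250 kb was 15 around Ctr-OPC hubs and 16 around IFN-γ-OPC hubs, against 13 in each table for other elements. For protein-coding genes alone it was 5 and 6 against 5. Other elements listed in the same condition numbered 13 and 15 around hubs, against 12. A hub's targets took up 45.5% and 44.4% (medians) of the gene starts within 250 kb. Dense surroundings were not required, since 136 Ctr-OPC hubs (14.96%) and 118 IFN-γ-OPC hubs (12.4%) had fewer than 8 gene starts in that window, against 18.8% and 20.2% of other elements. By chromosome the share of elements that were hubs ran, in Ctr-OPCs, from 1.68% on chromosome 4 and 1.74% on chromosome 15 to 4.27% on chromosome 13, 4.45% on chromosome 14 and 6.46% on the X chromosome (43 of 666). In IFN-γ-OPCs chromosome 4 (1.58%) and chromosome 15 (1.70%) were again low, and chromosome 13 (4.42%) and chromosome 14 (3.66%) high, while the X chromosome had 3.61% (27 of 748).

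The targets of hubs were spread over long distances. The median distance of a hub pair was 146 kb in Ctr-OPCs and 124 kb with IFN-γ, against 10.9 and 11.5 kb for pairs of other elements. Pairs within 10 kb made up 8.81% and 9.62% of hub pairs against 48.2% and 46.8% of others, and pairs over 1 Mb 13.1% and 12.2% against 3.57% and 3.64%. Contact was correspondingly low, with a median of 0.00436 and 0.00542 for hub pairs and 0.0229 and 0.0231 for others. Hubs reached to both sides, with targets upstream and downstream for 880 (96.8%) and 919 of them (96.8%). They did not skip the nearest gene more often than moderately connected elements: it was a target of 84.5% and 84.6% of hubs, and of 82.4% and 83.0% of elements with 4 to 7 targets.

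The number of targets counted some contacts more than once. Contact was read in 5-kb bins, and genes whose starts share a bin share the contact value, so a hub's targets lay in a median of 9 bins in Ctr-OPCs and 8 with IFN-γ, and 639 and 634 hubs reached at least 8 bins. Other listed pairs had no measured contact at all, which the model permits because it adds a small pseudocount that depends on distance. A contact of 0 stood in 1101 hub pairs of Ctr-OPCs (10.2%) and 880 of IFN-γ-OPCs (8.15%), against 0.623% and 0.412% of other pairs. These pairs were concentrated, because 41 and 28 hubs had contact 0 for at least 50% of their targets and held 555 and 542 of them. With contact-0 pairs left out, a choice made after seeing the data, 831 and 897 elements still had at least 8 targets.

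A minority of hubs had another hub close by. Another hub lay within 10 kb of 138 Ctr-OPC hubs (15.2%) and 171 IFN-γ-OPC hubs (18.0%), against 10.8% and 9.71% of elements with 7 targets and 2.08% and 1.89% of all other elements. Neighbouring hubs shared a median of 63.1% and 59.9% of their combined targets. Counted by gene, 7747 of the 25779 target genes in Ctr-OPCs (30.1%) and 7878 of 26591 with IFN-γ (29.6%) had at least 1 hub, and 2193 (28.3% of these) and 2040 (25.9%) had at least 2. These shares are the background for the gene groups below.

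The most active hubs were also among those with the most targets, and for most of these targets no contact was measured. The element in the Gm33838 intron, whose first bases are printed above, had 110 targets and an activity of 44.3 in Ctr-OPCs and 102 targets and 50.8 with IFN-γ. Its targets included 57 protein-coding genes in Ctr-OPCs, among them Cdon, a cell surface co-receptor of Hedgehog signalling, and 45 of its pairs lay above 0.05. Contact was 0 for 94 of the 110 and 88 of the 102. Its sequence aligned to 159 other places of the genome (at least 100 bp at 90% identity), 83.6% of it was repeat-masked, and shifted against itself by 234 bases it was 63.2% identical, against a median of 28.3% over all shifts tried, from 20 bases on.

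Further hubs showed the same combination of high activity and contact 0. At Gm26917, a non-coding gene, chr17:39845261-39845975 had 65 targets in Ctr-OPCs and 67 with IFN-γ, activities of 43.7 and 46.5, and contact 0 for 59 and 61 of them. Its neighbour chr17:39844275-39844774 had 27 and 21 targets, of which 23 and 17 were at contact 0, with activities of 29.6 and 31.6. Neither of these aligned to another place. In an intron of Chl1, a neural adhesion molecule, chr6:103648952-103649451 had 53 targets in each table, 51 and 50 at contact 0, with activities of 29.5 and 34.0. The element chr15:75086089-75087084 differed in having most of its contacts measured in both conditions, with 16 and 25 targets of which 6 and 12 were at contact 0 and activities of 17.2 and 18.6. Among all hubs, 51 in each table (5.61% and 5.37%) aligned to another place, 7 and 10 of them to at least 100 places. The alignment was run on hubs alone. By sampled 31-mers, which were counted for all elements, 0.440% and 0.421% of hubs and 0.266% and 0.337% of all elements had at least 50% of them at more than 1 place.

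A pair of such elements were hubs in IFN-γ-OPCs alone. chr2:98666095-98666594 in a coding exon of the predicted gene Gm10800 had the highest activity of any IFN-γ-OPC hub, 84.1, and 62 targets, 60 of them at contact 0, and no Ctr-OPC element overlapped it. chr14:19415546-19416453 in Gm21738 had 55 targets, all at contact 0, and an activity of 19.0, and the overlapping Ctr-OPC element had 1 target and 4.96. That Ctr-OPC element was 500 bp wide against 908 bp and shared 323 bp with it, and the sequence aligned to 13995 other places. What reads from repeated sequence contributed to these values was not tested.

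**Figure D3:**
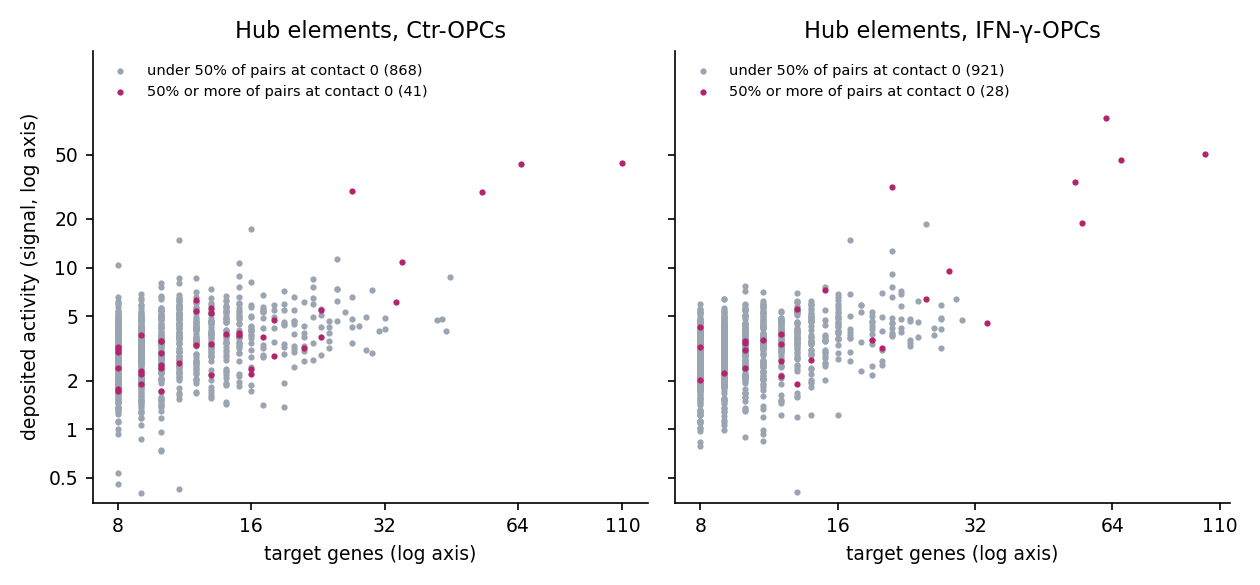
Activity (y axis, authors' units, log scale) against number of targets (x axis, log scale) for the 909 Ctr-OPC hubs and the 949 IFN-γ-OPC hubs, each point 1 hub. Hubs with contact 0 for at least 50% of their targets (41 and 28) are coloured apart from the rest (868 and 921) and include the points with the most targets and the highest activities, such as the Gm33838 intron hub at 110 targets and 44.3.

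Protein-coding genes made up 42.4% of hub pairs in Ctr-OPCs and 43.6% with IFN-γ, close to the 43.4% and 43.2% of other pairs. A hub had a median of 4 protein-coding targets, 163 and 153 hubs had at least 8, and 24 and 28 had none. Processed pseudogenes came next with 14.2% and 12.4% of hub pairs (12.8% and 12.9% of others), then long intergenic RNAs with 10.8% and 11.4% (11.5% and 11.4%). Antisense genes, which often start close to a protein-coding gene, were less frequent among hub pairs, 6.43% and 6.66% against 8.6% and 8.52%. Transcripts awaiting experimental support (TEC) took 7.51% and 8.09% (7.45% and 7.46%), miRNA genes 4.60% and 4.58% (4.5% and 4.39%), and snoRNA genes, which guide RNA modification, 3.39% and 3.05% (2.59% and 2.92%). Of the listed snoRNA genes 38.8% and 32% had a hub, of TEC genes 33.8% and 35.5%, and of antisense genes 26.1% and 26.9%, beside the 30.1% and 29.6% of all genes.

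Gene families that stand in clusters were often reached together. These families were chosen after their values were seen. Of the listed histone genes, 48 of 58 (82.8%) had a hub in Ctr-OPCs and 50 of 54 (92.6%) with IFN-γ, from 11 and 15 hubs. The histone hub with the most histone targets, chr13:23585284-23586158 at Hist1h2be, had 16 targets in Ctr-OPCs, 11 of them histone genes, and 21 in IFN-γ-OPCs, 14 of them histone genes, with activities of 3.65 and 3.8. Of the protocadherins, adhesion molecules of neural cells, 15 of 16 (93.8%) and 16 of 20 (80.0%) had a hub. Of the zinc finger genes of the Zfp group, mostly KRAB-type repressors, 94 of 241 (39.0%) and 98 of 232 (42.2%) did. A hub in an intron of the imprinted gene Peg3, chr7:6727401-6728226, had 19 and 29 targets and activities of 4.46 and 6.36, over 826 and 1199 bp, or 2.70 and 2.65 per 500 bp.

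Segments of the T-cell receptor, which T cells rearrange, were also listed as targets, 53 of 66 (80.3%) with a hub in Ctr-OPCs and 32 of 56 (57.1%) with IFN-γ. The Ctr-OPC hub with most of them, chr14:54059753-54060711, had 19 targets, each a receptor segment, at a low activity of 1.37, and no IFN-γ-OPC element overlapped it. In IFN-γ-OPCs chr6:41517977-41518476 had 13 targets, each a receptor segment, at an activity of 0.408, the lowest of any IFN-γ-OPC hub. Olfactory and vomeronasal receptor genes, which also stand in large clusters, had a hub for 46 of 99 listed genes in Ctr-OPCs and 36 of 98 with IFN-γ. These receptor genes are not known for a role in OPCs, and a listed gene needed a promoter activity quantile of 0.4, not measured RNA.

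More hubs kept their status than lost it, and most of those that lost it stood just under the threshold. Of the Ctr-OPC hubs 532 (58.5%) overlapped an IFN-γ-OPC hub by at least 1 bp, 355 (39.1%) overlapped an element with fewer than 8 targets, and 22 (2.42%) overlapped no element. Of the IFN-γ-OPC hubs 530 (55.8%) overlapped a Ctr-OPC hub, 372 (39.2%) an element below the threshold, and 47 (4.95%) none. Among those below it in the other condition, 218 (61.4%) and 221 (59.4%) still had 5 to 7 targets there, and 23 and 22 had 1. Conversely, 80 of the 7-target elements in Ctr-OPCs (24.0%) and 91 of those with IFN-γ (23.9%) were hubs in the other condition.

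The more targets a hub had, the more often its status was kept. Of hubs with exactly 8 targets 72 of 216 (33.3%) in Ctr-OPCs and 77 of 234 (32.9%) with IFN-γ were hubs in the other condition, of those with 9 or 10 targets 48.2% and 47%, of those with 11 to 15 72.3% and 70.7%, and of those with at least 16 113 of 121 (93.4%) and 97 of 106 (91.5%). Kept hubs had a median of 12 and 11 targets and an activity of 3.78 and 3.58, hubs below the threshold in the other condition 3.00 and 2.94, and hubs without a counterpart 2.27 and 2.50. ISRE letters stood in 14.5% of kept IFN-γ-OPC hubs, in 17.2% of those below the threshold in Ctr-OPCs, and in 13 of the 47 without a Ctr-OPC element (27.7%). Beside these stand 17.0% of all IFN-γ-OPC elements, and the share over all elements without a counterpart was not counted. For Ctr-OPC hubs the shares in the same order were 13.7%, 12.4% and 3 of 22 (13.6%), beside 13.7% of all Ctr-OPC elements.

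**Figure D4:**
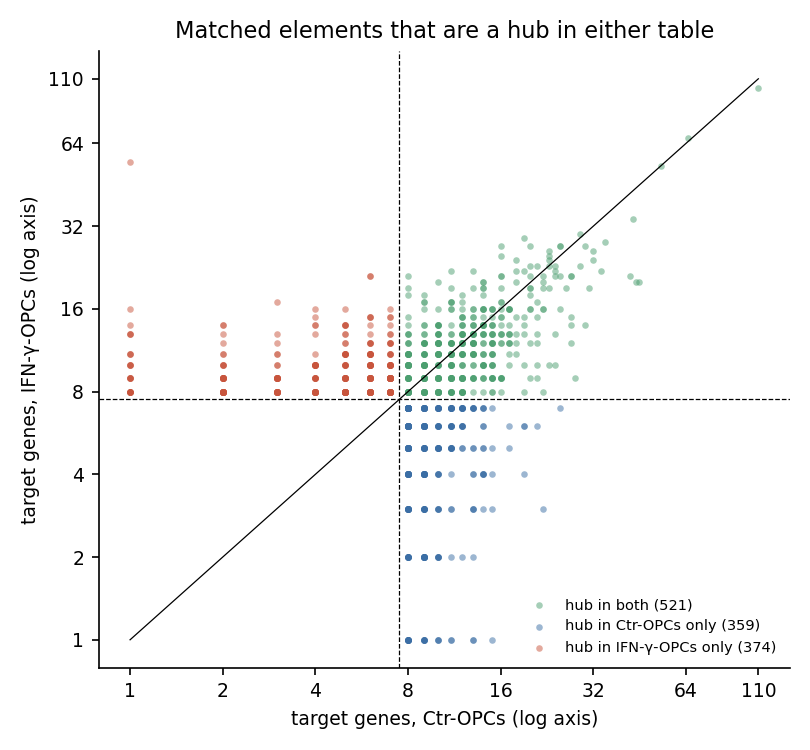
Targets in Ctr-OPCs (x axis, log scale) against targets in IFN-γ-OPCs (y axis, log scale) for elements matched between the conditions that were a hub in at least 1 of them, with lines at 8 targets. Of these 521 were hubs in both conditions, 359 in Ctr-OPCs alone and 374 in IFN-γ-OPCs alone, and many of the latter groups lie just under the line of the other condition.

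Many hub pairs were not listed in the other condition, some of them with a gene that was not listed there at all. Of the Ctr-OPC hub pairs 5458 (50.5%) were listed between overlapping elements and the same gene with IFN-γ, and in the other direction 5448 of the IFN-γ-OPC hub pairs (50.4%) were listed in Ctr-OPCs. For pairs of other elements the shares were 44.8% and 41.5%. A further 3148 (29.1%) and 2887 hub pairs (26.7%) had element and gene listed in the other condition but not as a pair, the listing starting at a score of 0.02. For 2060 (19.1%) and 2085 pairs (19.3%) the gene was not listed at all, and for 139 (1.29%) and 382 (3.54%) the element was not. Kept hubs shared 58.7% and 62.5% of their pairs, and hubs below the threshold in the other condition 36.7% and 35.2%.

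The 5 hubs that lost the most targets all had lower activity in IFN-γ-OPCs, although for the Ctnnd1 hub by less than the shift between the tables given further on, and 4 of them were narrower in that table. At the start of Ttyh1, a membrane protein of neural cells, chr7:4123746-4124646 had 45 targets and an activity of 8.77 in Ctr-OPCs and 20 targets and 4.93 with IFN-γ. The element spanned 901 bp in Ctr-OPCs and 500 bp with IFN-γ, and per 500 bp the values were 4.86 and 4.93. Per base the element was thus close in both tables. The same held in an intron of Jpx, a non-coding activator of Xist, where chrX:103532585-103533574 had 28 and 9 targets, activities of 4.38 and 2.33, and 2.21 and 2.33 per 500 bp. It held again for chr5:75346789-75347770, whose targets in Ctr-OPCs included Kit and Pdgfra, receptor kinases of which the latter marks OPCs, and Clock of the circadian clock. It had 25 and 7 targets, activities of 7.39 and 3.84, and 3.76 and 3.84 per 500 bp.

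The other losses had parts in common with the contact-0 hubs and with clustered small RNAs. In an intron of Ctnnd1, a cadherin-binding catenin, chr2:84635504-84636003 had 42 targets in Ctr-OPCs and 21 with IFN-γ at the same width of 500 bp and activities of 4.76 and 4.52, with 13 and 4 targets at contact 0. At the start of Pfkfb3, a kinase that promotes glycolysis, chr2:11501318-11501928 had 44 and 20 targets and activities of 4.05 and 2.65 (3.32 and 2.65 per 500 bp). Of its Ctr-OPC targets 27 were miRNA genes, 983 to 1036 kb away in 6 bins with scores of 0.0225 to 0.0341, and the overlapping element of IFN-γ-OPCs had 3 miRNA targets.

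Among the hubs that gained most targets, width and contact-0 pairs also differed. At the start of Sesn3, a stress-responsive sestrin, chr9:14275985-14276484 had 6 targets in Ctr-OPCs and 21 with IFN-γ at the same width of 500 bp, although its activity was 4.79 in Ctr-OPCs and 4.21 with IFN-γ. Its 21 targets were 7 long intergenic RNAs, 6 snoRNAs, 4 protein-coding genes and 4 others, in 13 bins. Near Kdm6b, which removes methyl groups from the same histone residue, chr11:69417853-69419221 had 7 and 21 targets and activities of 4.59 and 7.57, over 744 and 1369 bp, or 3.09 and 2.77 per 500 bp. The intergenic element chr11:109011635-109012134, whose targets included Axin2, an inhibitor of Wnt signalling, and Rgs9, a regulator of G-protein signalling, had 8 and 21 targets, activities of 10.4 and 12.6 at the same width, and contact 0 for 0 and 9. At Sft2d3, a gene of vesicle transport, the element had 3 and 17 targets and activities of 2.42 and 3.68, over 500 and 683 bp, or 2.42 and 2.69 per 500 bp.

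Hubs with no overlapping element in the other condition were less active than kept ones. The 3 most active in Ctr-OPCs were chr12:53291583-53292990 in an intron of the transcription factor gene Npas3, with 9 targets and an activity of 5.84, chr9:2999856-3000355 with 12 targets, 11 of them at contact 0, and 5.37, and chr17:34121162-34121661 close to the start of Brd2 and in an intron of H2-DMa with 13 targets and 4.68. The latter belongs to the class II antigen-presentation region and paired with H2-DMa, which loads peptides, at a score of 0.133 and with Tap1 and Psmb9 at 0.0249 each. In IFN-γ-OPCs, beside the Gm10800 hub given above, they were chr4:95303265-95303764, which had 14 targets including Jun, a subunit of AP-1, and an activity of 4.70, and chr13:119613996-119615316 with 14 targets and 4.64.

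Across all matched hubs the median activity was close in both tables. For the 1254 matched elements that were a hub in at least 1 condition the median log2 ratio of activity, IFN-γ over Ctr, was -0.09, against -0.08 over all 19332 matched elements, and the sign turned when each table was divided by its median activity (0.02 for hubs and 0.02 for all, a shift of -0.11 between the tables). At least 2-fold higher activity was found in 38 (3.03%) and at least 2-fold lower in 35 (2.79%), against 2.66% and 3.47% of all matched elements. After division by the median 50 hubs were up and 24 down, 67.6% up against 52.1% before, and 61.0% against 43.4% for all. The 521 hubs of both conditions had a median of -0.10 (0.01 after division by the median), with 3 up and 1 down. The 359 hubs of Ctr-OPCs alone had -0.31, with 0 up and 34 down, and the 374 of IFN-γ-OPCs alone 0.20, with 35 up and 0 down. Since status was set by target number, which scales with activity, the opposite signs of the last 2 groups are fixed in part by how they were chosen.

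Most of the large differences were in elements of unequal width. Among 864 matched hubs of equal width in both tables (a restriction added after seeing the data) 10 were up and 1 down, and among all 10088 such elements 122 (1.21%) and 18 (0.178%). Of the 34 Ctr-OPC-only hubs with at least 2-fold lower activity, 33 were among the 123 that were narrower in IFN-γ-OPCs, whose median log2 ratio was -0.74 for the total and 0.07 per base. Of the 35 IFN-γ-OPC-only hubs with at least 2-fold higher activity, 24 were among the 81 wider in IFN-γ-OPCs, with medians of 0.73 and -0.05 per base, and 10 were among the 264 of equal width, whose median was 0.11. The 224 Ctr-OPC-only hubs of equal width had -0.19.

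**Figure D5:**
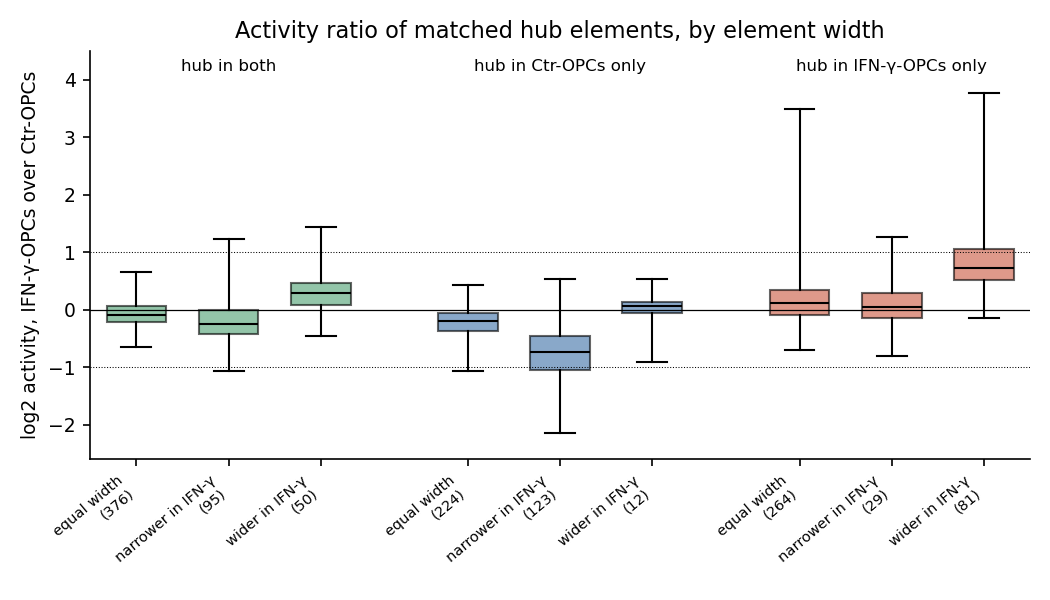
Log2 ratio of activity (IFN-γ over Ctr, y axis) for matched hubs of both conditions, of Ctr-OPCs alone and of IFN-γ-OPCs alone, split by whether the element is equally wide, narrower or wider in IFN-γ-OPCs. Boxes give the median and quartiles, whiskers the lowest and highest value, and dotted lines a 2-fold difference. The medians of the narrower Ctr-OPC-only hubs (-0.74) and the wider IFN-γ-OPC-only hubs (0.73) stand away from those of equal width (-0.19 and 0.11), and dividing by the table medians moves every value up by the same 0.11.

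A smaller share of the genes of the IFN-γ response than of all genes were hub targets. Of the 60 genes on the list 39 were targets in Ctr-OPCs, 6 of them with a hub (15.4%, beside 30.1% of all genes), and 49 in IFN-γ-OPCs, 10 of them with a hub (20.4%, beside 29.6%). In Ctr-OPCs these were Cxcl9, Ifit1, Ifit2, Ifit3, Psmb9 and Tap1, reached by 5 hubs. In IFN-γ-OPCs they were Ciita, Cxcl9, Cxcl10, Cxcl11, Dtx3l, Irf2, Parp9, Parp14, Psmb10 and Socs1, reached by 10 hubs, none of which overlapped a Ctr-OPC hub. Of these 10, 7 overlapped a Ctr-OPC element below the threshold and 3 overlapped none. Activity was higher in IFN-γ-OPCs for 7 of the 7, 4 of them at least 2-fold, with a median log2 ratio of 1.27 (0.17 to 3.77). All 7 were hubs in IFN-γ-OPCs alone, a group chosen towards higher activity, of which 71.4% were higher and 9.36% at least 2-fold. Per 500 bp it was higher for 5 of the 7, 3 of them at least 2-fold, with a median of 0.63, and 3 of the 7 had the same width in both tables. Of the 4 Ctr-OPC hubs of the list with a counterpart, 2 had higher activity in IFN-γ-OPCs and 0 differed by 2-fold, with a median of 0.06.

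The chemokine genes Cxcl9 and Cxcl10, whose products attract T cells through CXCR3, and their neighbour Cxcl11, which the annotation classes as a polymorphic pseudogene, shared 4 hubs in IFN-γ-OPCs, which lie in or beside Art3 on chromosome 5. The hub whose ISRE and gamma-activated site letters are printed above, chr5:92353477-92353976, had 10 targets and an activity of 3.31, and it paired with Cxcl10 at a score of 0.180 over 4.84 kb and a contact of 0.0395. The Ctr-OPC element that overlapped it by 73 bp had 2 targets and an activity of 0.503. chr5:92332408-92332907, also printed above, paired with Cxcl9 at 0.158, had 9 targets and an activity of 2.56, and had no Ctr-OPC counterpart. chr5:92368678-92369553 paired with Cxcl11 at 0.138, with activities of 2.60 and 1.08 (1.49 and 1.08 per 500 bp) and 9 and 7 targets in IFN-γ-OPCs and Ctr-OPCs. chr5:92371263-92371762 paired with Cxcl11 at 0.101, with activities of 1.91 and 1.23 and 8 and 5 targets, again with the IFN-γ value first. In Ctr-OPCs Cxcl9 had 3 hubs, at scores of 0.0219 to 0.0250, and Cxcl10 and Cxcl11 had 0.

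Regulators of the response were reached as well. Ciita, the master coactivator of class II antigen presentation, was paired at 0.0612 with chr16:10452455-10452954, which had an activity of 5.94 with IFN-γ and 2.15 in Ctr-OPCs at equal width and 8 and 3 targets. Socs1, a feedback inhibitor of the IFN-γ receptor's kinases, was paired at 0.0753 with chr16:10787056-10787555, which had 9 targets and an activity of 2.62 and no Ctr-OPC counterpart. Irf2, an interferon regulatory factor, was paired at 0.111 with chr8:46740420-46741511, with activities of 3.36 and 2.52 and 9 and 6 targets in IFN-γ-OPCs and Ctr-OPCs. The Irf2 hub spanned 1092 bp against 500 bp, and per 500 bp the order turned, 1.54 with IFN-γ and 2.52 in Ctr-OPCs.

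The remaining hubs of the list reached ADP-ribosyltransferases and the proteasome. Parp14 was paired at 0.102 with chr16:35869056-35870481, which had an activity of 2.70 and 11 targets with IFN-γ and 0.198 and 1 in Ctr-OPCs, or 0.946 and 0.198 per 500 bp. Dtx3l, a ubiquitin ligase, and its partner Parp9 were paired at 0.0614 with chr16:35918720-35919219, which had 11 targets and an activity of 3.45 and no Ctr-OPC counterpart. Psmb10, a subunit of the immunoproteasome, was paired at 0.0871 with chr8:105936994-105937657, with activities of 2.25 against 2.00 in Ctr-OPCs and 11 against 6 targets. It spanned 664 bp against 500 bp, and per 500 bp the order turned, 1.70 with IFN-γ and 2.00 in Ctr-OPCs. Gamma-activated site letters stood in the central 500 bp of 1 of the 10 hubs, beside 15.2% of all IFN-γ-OPC elements. ISRE letters stood there in 5 of the 10 hubs, beside 17.0% of all IFN-γ-OPC elements. These include the Cxcl11 hub chr5:92371263-92371762 and not the Parp14 hub, whose printed match lies outside that window. In Ctr-OPCs the Ifit genes, which bind foreign RNA, shared chr19:34878034-34878533 in Pank1, which had 11 targets in each condition, activities of 3.65 and 3.97, and scores of 0.0325 for Ifit3, 0.0236 for Ifit1 and 0.0206 for Ifit2.

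For the 21 MHC genes, the antigen-presenting molecules and their helpers, hub targets were more numerous in IFN-γ-OPCs. In Ctr-OPCs 13 were targets, 4 of them with a hub (30.8%, beside 30.1% of all genes), and in IFN-γ-OPCs 16, 10 of them with a hub (62.5%, beside 29.6%). They were reached by 4 hubs in Ctr-OPCs and 5 with IFN-γ. Of the 5 hubs 3 overlapped a Ctr-OPC hub, beside 55.8% of all IFN-γ-OPC hubs. In each condition 2 of these hubs were the neighbouring Gm26917 elements described above, which lie outside the MHC genes and were paired with H2-M3 alone of the list, at contact 0 over 2574 and 2575 kb. Their log2 ratios of activity (IFN-γ over Ctr) were 0.10 and 0.09. The other 3 hubs of IFN-γ-OPCs had measured contact and log2 ratios of 0.15 to 0.57, and 1 of them, that of H2-K1, overlapped a Ctr-OPC hub. Of the other 2 hubs of Ctr-OPCs, the Rxrb hub chr17:34038392-34038891 had a log2 ratio of -0.53, and the H2-DMa hub given above had no IFN-γ-OPC element. H2-DMb2, a chain of the class II peptide loader, was paired at 0.133 with chr17:34135297-34135796 in H2-DMa, which had activities of 4.11 with IFN-γ and 3.19 in Ctr-OPCs and 13 and 5 targets. The non-classical class I genes H2-T22, H2-T23 and H2-T24 shared chr17:35996888-35997387, with activities of 1.85 against 1.66 in Ctr-OPCs and 8 against 4 targets, at a score of 0.0301 for H2-T23. H2-K1, a classical class I gene, was paired at 0.0260 with chr17:34025674-34026173, with activities of 2.52 against 1.69 in Ctr-OPCs and 10 against 8 targets.

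The hubs of OPC lineage genes kept their status about as often as all hubs. Of the 38 genes of the list, which holds lineage factors, OPC surface molecules and myelin genes, 36 were targets in Ctr-OPCs, 13 of them with a hub (36.1%, beside 30.1% of all genes), and 37 in IFN-γ-OPCs, 15 of them with a hub (40.5%, beside 29.6%). A hub was found in both conditions for 11 of these genes, in Ctr-OPCs alone for Sox10 and Vcan, and in IFN-γ-OPCs alone for Cspg5, Mobp, Zeb2 and Zfp488. They were reached by 19 hubs in Ctr-OPCs and 24 with IFN-γ, of which 12 and 13 were kept, beside 58.5% and 55.8% of all hubs. A further 6 and 10 were below the threshold in the other condition, and 1 and 1 had no element there. Of the 18 Ctr-OPC hubs with a counterpart 3 had higher activity in IFN-γ-OPCs, 1 was at least 2-fold lower, and the median log2 ratio was -0.19. Per 500 bp 6 of the 18 were higher, 0 were 2-fold lower and the median was -0.15. Of the 23 IFN-γ-OPC hubs 12 had higher activity there, with a median of 0.01. Both counts of higher hubs include the Gm26917 hub, which was paired with Mog at contact 0 over 2822 kb. Over all matched hubs, activity was higher with IFN-γ in 36.9% of those of both conditions. It was higher in 13.6% of those of Ctr-OPCs alone and 71.4% of those of IFN-γ-OPCs alone. At least 2-fold lower activity was found in 0.192%, 9.47% and 0% of these groups.

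The best-scoring hub pair of this list came from an element that was a hub in IFN-γ-OPCs alone. Zfp488, a zinc finger repressor that promotes oligodendrocyte differentiation, was paired at 0.349 with chr14:33974753-33975252 in its own intron, which had 11 targets and an activity of 3.57 with IFN-γ and 5 and 3.04 in Ctr-OPCs. Cspg4, the NG2 proteoglycan on the surface of OPCs, was paired at 0.210 with chr9:56868110-56868609 in its intron, with 11 targets against 5 in Ctr-OPCs at nearly the same activity, 6.25 against 6.17. Another Cspg4 element, chr9:56880787-56881903 with a score of 0.0925, went the other way, with 11 targets and an activity of 7.98 in Ctr-OPCs against 7 and 4.17, or 3.57 against 4.17 per 500 bp. Ptprz1, a receptor phosphatase, had chr6:22833608-22834993 at 0.137 in Ctr-OPCs and 0.0954 with IFN-γ, an element with 35 and 28 targets, 20 and 17 of them at contact 0, and activities of 10.8 and 9.56. Mog, a myelin surface protein, had chr17:37028604-37029103 at 0.175 and 0.146, with 11 and 9 targets and activities of 4.41 and 3.17. Id2, an inhibitor of differentiation, had chr12:25095964-25096463 at its own start at 0.118 and 0.132, with 9 targets in each condition and activities of 4.23 and 3.77.

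The factors that define the lineage had hubs of their own. Olig2 and Olig1, which specify it, shared chr16:91305003-91306142, with 25 targets in Ctr-OPCs and 16 with IFN-γ. Its scores were 0.0957 and 0.0670 for Olig2 and 0.0891 and 0.0587 for Olig1, and its activities 11.3 and 6.27. The element spanned 1140 bp in Ctr-OPCs and 500 bp with IFN-γ, and per 500 bp the order turned, 4.95 and 6.27. Sox10, whose promoter drives Cre in these mice, had 1 hub in Ctr-OPCs, chr15:79152381-79153135, at a score of 0.0456 with 8 targets and an activity of 6.57, and the overlapping IFN-γ-OPC element had 4 targets and 3.84. Over widths of 755 and 500 bp these activities were 4.35 and 3.84 per 500 bp. Pdgfra, the receptor for PDGF-AA, was paired with chr5:75163278-75163777 at 0.0517 and 0.0461, with 10 and 12 targets and activities of 4.32 and 3.41. Vcan, a matrix proteoglycan of OPCs, was paired at 0.119 with a hub at its own start, chr13:89740211-89740710, with 8 targets and an activity of 2.52, and no IFN-γ-OPC element overlapped it.

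Of the listed miRNA genes 316 of 1052 had a hub in Ctr-OPCs (30.04%) and 326 of 1073 with IFN-γ (30.4%), near the share of all genes, and 155 and 167 of these have a mature sequence in the RefSeq table. Mir9-2, a source of the neural miR-9-5p whose sequence is printed above, was the target of 11 elements in Ctr-OPCs, 8 of them hubs, and of 13 in IFN-γ-OPCs, 12 of them hubs. In Ctr-OPCs these 8 hubs had 10 to 25 targets, lay 0.983 to 609 kb from it and scored 0.0313 to 0.115, and each was again a hub in IFN-γ-OPCs. The most distant, chr13:84347971-84348470, had 25 targets in Ctr-OPCs and 27 with IFN-γ, activities of 6.25 and 5.88 and scores of 0.0707 and 0.0713. The best-scoring, chr13:83731003-83731502, had 16 and 12 targets, activities of 4.16 and 4.90 and scores of 0.115 and 0.130. It spanned 500 and 713 bp, and per 500 bp the order turned, 4.16 and 3.43.

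The 6 miRNA genes of the miR-17 to miR-92 cluster, a proliferation-associated cluster that includes the miR-17-5p and miR-19a-3p seed families printed above, lie in 1 transcript and shared their hubs. chr14:115031752-115032251 had 12 targets in Ctr-OPCs and 13 with IFN-γ and activities of 1.94 and 2.51, while its score for Mir17 was 0.0905 and 0.0407 and its contact 0.0236 and 0.00736. chr14:115040543-115041042 had 9 and 10 targets, activities of 1.88 and 2.07 and scores of 0.134 and 0.183. chr14:115041361-115041860 was listed in Ctr-OPCs alone, with 8 targets and an activity of 1.01. These activities were low for hubs. Mir219a-1, a source of miR-219a-5p, which promotes myelination, lies in the MHC region on chromosome 17, where chr17:34025668-34026167, the Ctr-OPC counterpart of the H2-K1 hub, had 8 and 10 targets, activities of 1.69 and 2.52 and scores of 0.0470 and 0.0865 for this gene. A further hub, chr17:34038392-34038891 at Rxrb, had 11 targets in Ctr-OPCs and 5 with IFN-γ, activities of 3.18 and 2.20 and a Ctr-OPC score of 0.0312.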

How the data were processed

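H3K27ac HiChIP was done on OPCs from 6 libraries, 3 for each condition. Per the study's methods the authors aligned the reads to mm10 and removed duplicates with HiC-Pro, a tool also named in the submitters' processing notes, and ran the ABC model on each condition, taking activity from its ATAC-seq and its CUT&RUN for H3K27ac and contact from HiChIP. The label of the deposited predictions gives 5 kb. The authors deposited 1 table of element-gene pairs per condition, made from its pooled libraries. The deposited activity is a signal, the deposited ABC value a fraction of the gene's total, and the deposited contacts, power-law shares and promoter quantiles are score values. The authors' short lists held the same pairs with an ABC difference of 0. The depth behind the pooled tables is unknown, so no counting interval was made, and any sequence that the aligner could place at several sites may have lost or gained reads.

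Elements were read from all deposited rows. Hubs had at least 8 distinct targets, and elements of the tables were matched by an overlap of at least 1 bp. For the status of a hub and the values of single hubs, the overlapping element with the most targets served, with the larger overlap settling ties. For the log2 ratios over all matched hubs and all matched elements, each element had to be the largest overlap of the other. With 1 table per condition, every comparison is a description without a test. Of 32049 target genes 31937 were found in GENCODE M21, and 99.6% of these had their start within 1 bp of it. Copies were sought with BLAST 2.17.0 (at least 100 bp at 90% identity) and with 31-mers every 25 bases. Python 3.11.15, pandas 2.3.3, NumPy 2.4.6, numba 0.67.0 and matplotlib 3.10.9 were used. The scripts were tested on simulated data.

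The members, the gene lists (60 IFN-γ response, 38 OPC lineage and 21 MHC genes) and the tests were chosen with earlier results of these data known. Hubs were named by rule: the 5 with the most targets and the 5 most active of each table, the 5 largest gains and the 5 largest losses of targets among matched hubs, the 3 most active without a counterpart, and hubs with a target in a gene list, with values for the 5 best scores of each list. Values for further hubs of the lists, for gene families and for miRNA genes were chosen after they were seen. Contact-0 pairs left out, 31-mers and elements of equal width were added after seeing the data.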

Additional observations from a re-analysis of the deposited data

How the results depend on the processing

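No paired analysis was possible because the 3 libraries of a condition share 1 table, and for the same reason no replicate could be left out. The number of hubs moved most with its definition (Ctr-OPCs, then IFN-γ-OPCs): 1739 and 1862 with at least 6 targets, 532 and 517 with at least 10, 34 and 29 with scores above 0.05, and 163 and 153 with protein-coding targets. It was 367 and 318 when a listed pair also needed a power-law score of at least 0.02. Pairs below an ABC score of 0.02 were not available, so this is no count under power-law contact alone. With genes listed in both tables alone the numbers of hubs were 610 and 624. Counting 5-kb bins once gave 639 and 634 and leaving out contact-0 pairs 831 and 897, and leaving out elements with at least 50% of their sampled 31-mers elsewhere in the genome 905 and 945. With the same number of top-scoring pairs in both tables the share of IFN-γ-OPC hubs that were kept was 59.4%. Median activity of hubs was 2.94 and 2.74 with at least 6 targets and 3.77 and 3.60 with at least 10, and of other elements 0.831 and 0.769, and 0.855 and 0.793. Dividing each table by its median activity turned the sign of the median log2 ratio for hubs of either condition (0.0199) and of both (0.00982), and gave -0.20 for hubs of Ctr-OPCs alone and 0.31 for those of IFN-γ-OPCs alone. With equal width these were -0.19 and 0.11. The ratio of gene starts around hubs to those around other elements was 1.15 and 1.23 within 250 kb, 1 and 1 within 25 kb, 1.12 within 500 kb in IFN-γ-OPCs, and 1 for protein-coding genes in Ctr-OPCs. With each gene counted once the protein-coding share was 45.3% and 45.7%. The 31-mers were a stricter measure of copies than an alignment, with 4 hubs of each table over this 50% where 51 of each aligned to another place, so most hubs with an aligned copy stayed in these counts. The cause of these differences was not tested. The other 42 values stayed within 1.5 times for counts, the 610, bin, contact-0 and 31-mer counts above included, and within the 95% interval of the main value for the rest. That interval was taken over the hubs, elements or pairs of 1 table. These are not replicates, so the interval is only a yardstick and says nothing of the spread between libraries. How activity was scaled between the tables is not given in the sources used here, so a direction near 0 rests on that scaling. Many hubs lie close to the threshold of 8 targets. The depth behind each table is unknown.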
